A study of Mus musculus with 12 samples.

Results

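The comparison set the cerebral cortex of E14.5 mouse embryos homozygous for the human version of the enhancer HARE5 (HARE5Hs/Hs) against that of wild-type (WT) embryos of the same age. Its members are the 6 libraries that the labels place at E14.5, 3 HARE5Hs/Hs and 3 WT, of 12 libraries in the series. The other 6 come from E12.5 embryos, 3 of each genotype. They shared in the estimate of the spread between embryos and gave the genotype difference at the earlier age. Each library holds mRNA of the microdissected cortex of 1 embryo, sequenced with a stranded kit. The HARE5Hs/Hs embryos carry the human sequence at the mouse locus as a knock-in, and WT embryos carry no named allele. The labels give neither the strain, nor the litter, nor the number of founder lines, so a difference between genotypes cannot be told apart from one between litters. The dissected cortex holds progenitors, neurons, vessels and blood together. In such bulk tissue, fewer cells of a type and less RNA per cell cannot be told apart.

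HARE5 is an enhancer that gained sequence changes on the human lineage and acts on Fzd8, which encodes a Frizzled receptor for Wnt ligands. Wnt signals, passed on by beta-catenin and TCF/LEF factors, keep radial glia, the stem cells of the cortex, dividing. Around E14.5 in the mouse, radial glia produce intermediate progenitors and neurons in rapid succession, as production turns from deep-layer to upper-layer neurons. Genes of DNA replication and mitosis then mark the dividing cells, and genes of synapses, channels and axons the cells that have left the cycle.

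The 6 libraries held 11593202 to 17195404 counts, with HARE5Hs/Hs replicate 3 the smallest, and 14537 to 15885 detected genes, again fewest in that embryo. Levels are given as CPM, each library's counts as a share of its scaled total, in the order of replicates 1, 2 and 3. Differences are log2 fold changes of HARE5Hs/Hs over WT with their standard error (SE). HARE5Hs/Hs replicate 3 stood apart from the other 5 libraries. On the first principal component, with 47.9% of the variance, the HARE5Hs/Hs embryos lay at −23.2, −3.36 and 77.1 and the WT embryos at −10.9, 6.07 and −45.7. HARE5Hs/Hs replicate 3 held 416 counts of Gfap, an intermediate filament gene of mature astrocytes, against 0 to 8 in each of the other 5 embryos. Nefh, the heavy neurofilament gene of mature axons, had 161 counts in it and 0 to 12 elsewhere. Mog and Mobp, genes of myelin, were at 0 in all 6 libraries. The heat-shock gene Hspa1b stood at 0.296, 1.147 and 80.9 CPM in HARE5Hs/Hs embryos, against 0.597, 0 and 1.46 CPM in WT. These genes were named after their values were seen. The part of this embryo in the results was measured by leaving it out, and the values without it stand beside the main gene groups. In each genotype 1 embryo lacked Xist, the RNA of the inactive X, which stood at 0 CPM in HARE5Hs/Hs replicate 3 and 0.607 CPM in WT replicate 2, and at 2096 CPM or more in the other 4 embryos.

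No gene passed between the genotypes at E14.5 in the quasi-likelihood test of edgeR (0 of 14311 genes at a Benjamini-Hochberg adjusted p under 0.05; the smallest was 0.342). The p-values were nevertheless shifted towards 0. At an unadjusted p under 0.05, 852 genes stood higher in HARE5Hs/Hs (5.95% of genes tested) and 856 lower (5.98%). Together these were 1708 genes (11.9%), against 322 (2.25%) for the same comparison at E12.5, 196 higher (1.37%) and 126 lower (0.88%). Both ages were tested with a spread estimated over all 12 libraries, so the contrast between these counts depends on that shared spread. With only the 6 E14.5 libraries, 2010 genes (14%) had an unadjusted p under 0.05 at E14.5. The DESeq2 Wald test, on the same counts, called 25 genes higher (0.175%) and 10 lower (0.0699%). Its unadjusted split was 1089 higher and 724 lower. The count of 1708 rested on single embryos and was 2812 without HARE5Hs/Hs replicate 1 (9.17% higher and 10.5% lower), 914 without HARE5Hs/Hs replicate 2 (3.15% higher and 3.24% lower), 872 without HARE5Hs/Hs replicate 3 (3.08% and 3.01%) and 1046 without WT replicate 3 (3.4% and 3.91%). The shares were 7.11% higher and 5.06% lower without WT replicate 1, and 4.33% and 5.25% without WT replicate 2. Counts of gene groups with an embryo left out are to be read against these shares. HARE5Hs/Hs replicate 1 lay nearest to the WT embryos in many of the groups described below, and without it edgeR called 19 genes (0.133%), 7 higher and 12 lower, of which DESeq2 called 11 as well. With any other embryo left out edgeR called 0. Leaving out the embryo nearest to WT enlarges the difference by itself, so calls made without HARE5Hs/Hs replicate 1 are no separate support for a gene.

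**Figure D1:**
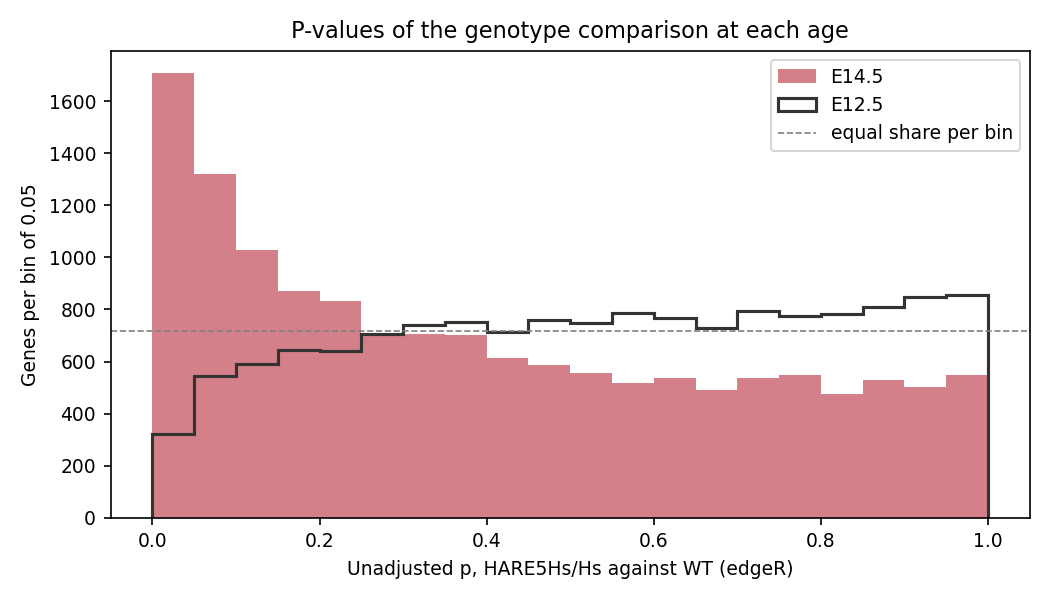
Number of genes per bin of unadjusted p (x axis, bins of 0.05) in edgeR's test of HARE5Hs/Hs against WT, at E14.5 (filled) and at E12.5 (line); the dashed line is an equal share of the 14311 genes per bin. The lowest bin holds 1708 genes at E14.5 and 322 at E12.5, both tested with a spread estimated over all 12 libraries.

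Cux2, a homeodomain factor of upper-layer neurons and of the progenitors that make them, had the smallest p of all genes. It stood at 45.3, 70.1 and 63.5 CPM in the HARE5Hs/Hs embryos, against 32.9, 33.1 and 30.8 CPM in WT. Every HARE5Hs/Hs embryo lay above every WT embryo, and the WT embryos lay within a few CPM of each other. The difference was 0.88 (1.85-fold, SE 0.14, 95% interval 0.58 to 1.19, edgeR adjusted p = 0.342, DESeq2 adjusted p = 6.16e-05). At E12.5 it was −0.28, and the test of the difference between ages gave 1.17 (edgeR adjusted p = 0.921, DESeq2 adjusted p = 0.00159). Cux2 was the single gene that DESeq2 called for that interaction, where edgeR called 0 of 14311 and 731 genes (5.11%) had an unadjusted p under 0.05, 334 with a positive term (2.33%) and 397 with a negative one (2.77%). Without HARE5Hs/Hs replicate 1, the nearest to WT, edgeR called Cux2 at E14.5 (1.05, edgeR adjusted p = 0.00891) and for the interaction (1.34, edgeR adjusted p = 0.017). It was not called with any other embryo left out. Without HARE5Hs/Hs replicate 3 the difference was 0.84.

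Of the other genes with the smallest p on the higher side, Ptprt, a receptor tyrosine phosphatase of neurons, stood at 21.4, 39.0 and 35.2 CPM in HARE5Hs/Hs and 14.53, 9.45 and 11.2 CPM in WT (1.44, SE 0.27, edgeR adjusted p = 0.342, DESeq2 adjusted p = 0.000488). Syn3, a synapsin of developing neurons, stood at 44.5, 56.0 and 46.0 CPM in HARE5Hs/Hs and 32.2, 28.8 and 27.4 CPM in WT (0.73, SE 0.14, edgeR adjusted p = 0.342, DESeq2 adjusted p = 0.0076). Fam19a1 and Fam19a2 encode small secreted proteins of the nervous system. Fam19a1 was low, at 2.02, 3.98 and 1.91 CPM in HARE5Hs/Hs and 0.265, 0.135 and 0 CPM in WT, and Fam19a2 stood at 5.16, 10.1 and 7.29 CPM in HARE5Hs/Hs and 2.79, 1.08 and 1.86 CPM in WT (1.97, SE 0.40). Calb1, the calcium buffer calbindin, had 1.84, 5.87 and 3.74 CPM in HARE5Hs/Hs and 0.664, 0.540 and 0.996 CPM in WT (2.36, SE 0.48). In each of these genes the 3 HARE5Hs/Hs embryos lay above the 3 WT embryos. So did they for Ncdn, a neuronal cytoplasmic protein (90.3, 104 and 115 CPM in HARE5Hs/Hs, 73.5, 78.3 and 66.3 CPM in WT), for Bend5, a BEN-domain protein (0.62), for Atrnl1, a relative of attractin (0.40), and for Trim9, a ubiquitin ligase of axon branching (0.73). Genes whose HARE5Hs/Hs embryos all lay above WT numbered 1356 (9.48%) and those all below 1278 (8.93%), against 478 (3.34%) and 545 (3.81%) at E12.5.

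On the lower side, Cdca5, which encodes sororin and holds sister chromatids together, had the smallest p. Its levels were 35.9, 30.6 and 29.9 CPM in HARE5Hs/Hs and 41.8, 51.6 and 44.1 CPM in WT (−0.51, SE 0.10, edgeR adjusted p = 0.342, DESeq2 adjusted p = 0.0188). Rad54l, a motor of repair by homologous recombination in dividing cells, stood at 45.1, 34.0 and 35.8 CPM in HARE5Hs/Hs and 51.6, 54.2 and 54.8 CPM in WT (−0.48, SE 0.10, DESeq2 adjusted p = 0.0225). The 3 HARE5Hs/Hs embryos lay below the 3 WT embryos in both, with replicate 1 nearest to WT. Adamts19, a secreted metalloprotease gene, had 11.4, 4.86 and 4.65 CPM in HARE5Hs/Hs and 16.1, 17.0 and 19.8 CPM in WT (−1.33, SE 0.30, DESeq2 adjusted p = 0.0164), so that HARE5Hs/Hs replicates 2 and 3 lay well below replicate 1. Without replicate 1 it stood at −1.89 and was called by edgeR (edgeR adjusted p = 0.00897), also for the interaction with age (edgeR adjusted p = 0.047). Eya2, a transcriptional coactivator, stood at 6.29, 4.995 and 4.37 CPM in HARE5Hs/Hs and 8.96, 12.2 and 16.4 CPM in WT (−1.25, SE 0.29). Rbms2, an RNA-binding protein gene (−0.42), and Elovl5, of fatty acid elongation (−0.38), were DESeq2 calls. Pno1, of ribosome assembly (−0.52), Sfxn5, a mitochondrial carrier gene (−0.43), and Mavs, an adaptor of antiviral signalling (−0.50), were not. Bank1, a scaffold of B cells, held 1 count over the 3 HARE5Hs/Hs embryos and 29 over the 3 WT embryos, a ratio of 0.0363 (95% counting interval 0.00089 to 0.219, which leaves out the spread between embryos).

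**Figure D2:**
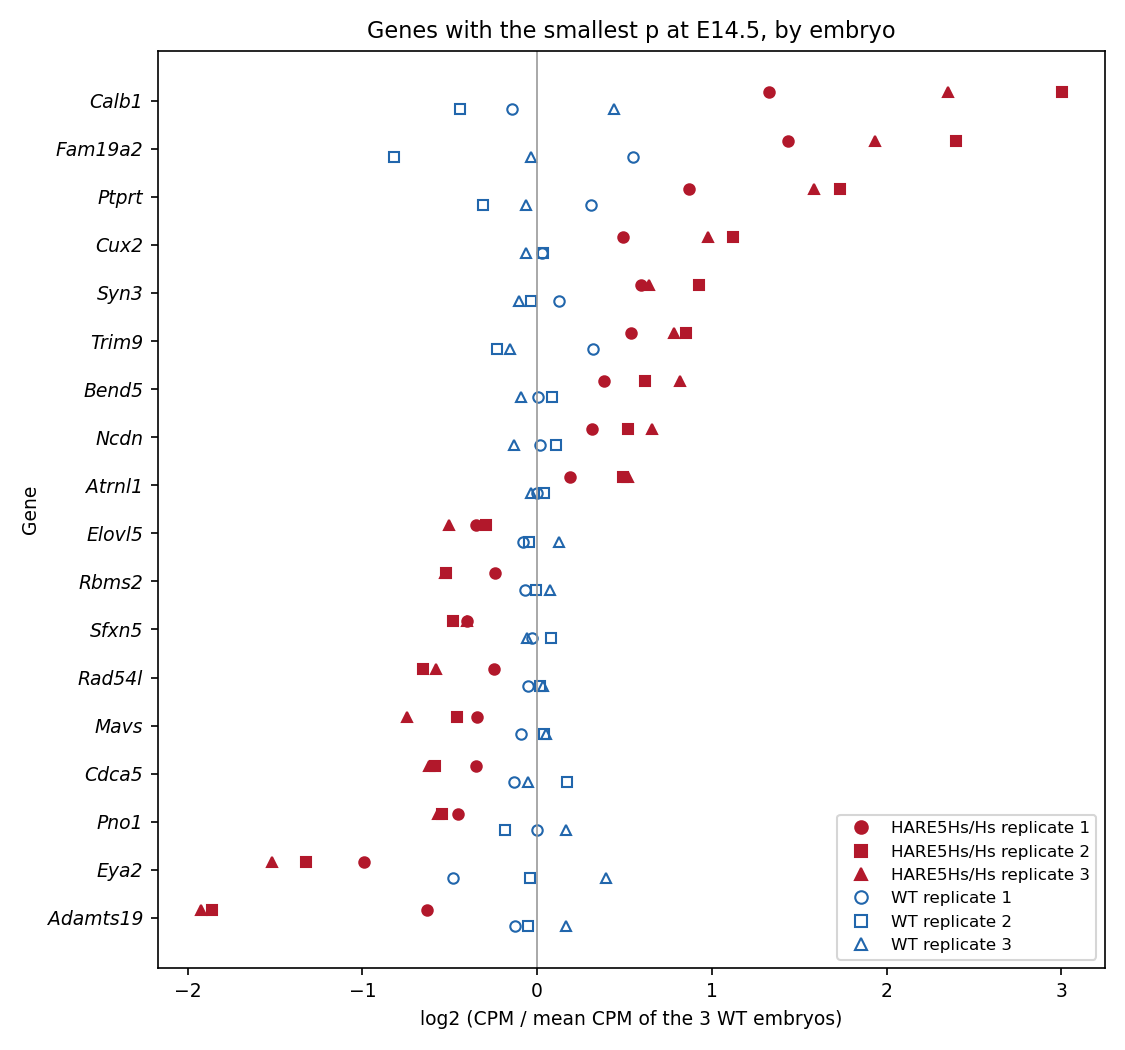
Level of each of 18 genes with the smallest p in either direction, as log2 of the CPM of each embryo over the WT mean (x axis), with HARE5Hs/Hs embryos (red, filled) drawn above WT embryos (blue, open) in each gene's row; Fam19a1 and Bank1 are left out because an embryo stood at 0. The HARE5Hs/Hs embryos lie to 1 side of the WT embryos in each row, and HARE5Hs/Hs replicate 1 (circle) is often the nearest to WT, as for Cux2 at 45.3 CPM.

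Genes of neurons stood higher in HARE5Hs/Hs as a group. All 28 synapse and ion channel genes tested had a positive difference, with a median of 0.70, where the median of all 14311 genes was −0.01. Of them, 12 stood higher at an unadjusted p under 0.05 and 0 lower, where 5.95% and 5.98% of all genes did. In 15 all HARE5Hs/Hs embryos lay above all WT embryos, where 9.48% of all genes did. Summed over the list the level was 1520, 2002 and 2514 CPM in HARE5Hs/Hs, against 1505, 1280 and 1126 CPM in WT. The sums did not overlap, but HARE5Hs/Hs replicate 1 lay just above WT replicate 1. Scn3a, a sodium channel of the fetal brain, stood at 51.0, 76.4 and 64.9 CPM in HARE5Hs/Hs and 41.9, 41.5 and 32.9 CPM in WT (0.72, SE 0.18, edgeR adjusted p = 0.342, DESeq2 adjusted p = 0.0467). Vamp2, of synaptic vesicle fusion, stood at 130, 152 and 184 CPM in HARE5Hs/Hs and 125, 107 and 94.7 CPM in WT (0.51, SE 0.16). In both genes no HARE5Hs/Hs embryo overlapped WT, and replicate 1 was the nearest to WT. Grin1, the obligate subunit of the NMDA receptor, was different, with 8.36, 14.4 and 45.0 CPM in HARE5Hs/Hs and 8.16, 7.49 and 5.71 CPM in WT (1.66, SE 0.50), so that replicate 3 alone held more than the other 2 together. Without HARE5Hs/Hs replicate 3, in which Gfap and Nefh were high, 3 of the 28 genes had an unadjusted p under 0.05 (3.08% of all genes did, on the higher side) and the median was 0.44. The count was 7 without WT replicate 2 (4.33% of all genes) and 6 without WT replicate 3 (3.4%). With an embryo left out, 26 to 28 of the differences were positive.

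The 15 general neuron genes were all on the higher side as well (median 0.42), 4 of them at an unadjusted p under 0.05, where 5.95% of all genes stood higher. In 2 of the 15 all HARE5Hs/Hs embryos lay above all WT embryos, where 9.48% of all genes did. Their summed level overlapped, at 5225, 7056 and 7439 CPM in HARE5Hs/Hs and 5527, 4752 and 4214 CPM in WT. Syt1, the calcium sensor of transmitter release, stood at 54.1, 79.8 and 169 CPM in HARE5Hs/Hs and 52.1, 34.3 and 40.3 CPM in WT (1.25, SE 0.41, edgeR adjusted p = 0.342). Snap25, a vesicle fusion gene, stood at 40.0, 58.2 and 199 CPM in HARE5Hs/Hs and 47.0, 35.5 and 35.6 CPM in WT (1.32, SE 0.50). In both, replicate 3 was far above the other HARE5Hs/Hs embryos. Tubb3, the beta-tubulin of young neurons, was more even, with 1080, 1566 and 1412 CPM in HARE5Hs/Hs and 1107, 1041 and 898 CPM in WT (0.41, SE 0.16), and HARE5Hs/Hs replicate 1 lay within the WT range. Gap43, of growing axons, likewise had 138, 203 and 183 CPM in HARE5Hs/Hs and 144, 122 and 110 CPM in WT (0.48, SE 0.21). Without HARE5Hs/Hs replicate 3 all 15 differences stayed positive (median 0.34) and 0 had an unadjusted p under 0.05, where 3.08% of all genes did on that side. The count was 2 without HARE5Hs/Hs replicate 2 (3.15% of all genes), 2 without WT replicate 2 (4.33%) and 1 without WT replicate 3 (3.4%).

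Upper-layer genes stood higher on the whole, with 11 of 12 positive, a median of 0.47, and 5 higher and 1 lower at an unadjusted p under 0.05, where 5.95% and 5.98% of all genes were. Besides Cux2, Mef2c, a transcription factor of maturing cortical neurons, stood at 58.7, 77.3 and 118 CPM in HARE5Hs/Hs and 54.7, 46.4 and 41.3 CPM in WT (0.83, SE 0.27). For Mef2c, HARE5Hs/Hs replicate 1 lay just above the WT range. Lhx2, which acts in progenitors as well as in upper layers, was the exception with 374, 294 and 286 CPM in HARE5Hs/Hs and 390, 461 and 358 CPM in WT (−0.34, SE 0.13). The higher count was 3 without HARE5Hs/Hs replicate 2, without WT replicate 2 or without WT replicate 3 (3.15%, 4.33% and 3.4% of all genes), and 2 without HARE5Hs/Hs replicate 3 (3.08%; median 0.34). Among 15 deep-layer genes 11 were positive (median 0.30) and 3 had an unadjusted p under 0.05 on the higher side (5.95% of all genes). Ldb2, a cofactor of corticospinal neurons, stood at 16.4, 32.5 and 37.7 CPM in HARE5Hs/Hs and 16.1, 12.3 and 16.7 CPM in WT (0.94, SE 0.24), so that HARE5Hs/Hs replicate 1 lay within the WT range. Without that embryo edgeR called it (1.22, edgeR adjusted p = 0.0169). Sox5, which directs subcortical projection neurons, stood at 321, 398 and 522 CPM in HARE5Hs/Hs and 358, 280 and 248 CPM in WT (0.48, SE 0.19). The deep-layer count was 8 without HARE5Hs/Hs replicate 1 and 6 without WT replicate 1, where 9.17% and 7.11% of all genes stood higher. It was 2 without HARE5Hs/Hs replicate 2 or WT replicate 2 (3.15% and 4.33%) and 1 without HARE5Hs/Hs replicate 3 or WT replicate 3 (3.08% and 3.4%).

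Of 34 axon guidance and adhesion genes, 25 were positive (median 0.26), with 5 higher and 2 lower at an unadjusted p under 0.05. Over all genes 5.95% were higher and 5.98% lower, so that the lower count was near the share of all genes. Ncam1, the neural cell adhesion molecule, stood at 276, 372 and 382 CPM in HARE5Hs/Hs and 231, 221 and 196 CPM in WT (0.67, SE 0.22, edgeR adjusted p = 0.342). Robo2, a receptor for Slit, stood at 134, 203 and 233 CPM in HARE5Hs/Hs and 139, 108 and 113 CPM in WT (0.66, SE 0.24). Ptprk, an adhesive phosphatase, stood at 55.6, 68.8 and 72.1 CPM in HARE5Hs/Hs and 54.0, 50.9 and 52.2 CPM in WT (0.32, SE 0.10). Flrt3, an adhesion gene of migrating cells, was 1 of the 2 on the lower side, with 77.8, 57.0 and 60.9 CPM in HARE5Hs/Hs and 80.2, 83.5 and 103 CPM in WT (−0.45, SE 0.18). The higher count was 3 without HARE5Hs/Hs replicate 2 or 3 (3.15% and 3.08% of all genes), and 2 without WT replicate 2 (4.33%). The lower count was 0 without HARE5Hs/Hs replicate 2, HARE5Hs/Hs replicate 3 or WT replicate 3, and 1 without WT replicate 1. The DESeq2 calls included Cdh4, a cadherin of axon pathways (0.72, DESeq2 adjusted p = 0.0188), Ntm, an adhesion gene (0.98, DESeq2 adjusted p = 0.0398), Scn1a, a sodium channel (1.70, DESeq2 adjusted p = 0.0398), and Nav2, of axon elongation (0.91, DESeq2 adjusted p = 0.0281). Atp1b1, a subunit of the sodium pump (1.10), Epb4.1l1, of the membrane skeleton of neurons (0.66), Clip2 and Pde4dip, of the microtubules (0.50 and 0.50), Sla, a Src-like adaptor gene (1.34), and Col22a1, a collagen gene (1.23), were called by DESeq2 as well. In 33 of the 35 DESeq2 calls the embryos of the 2 genotypes did not overlap, where 9.48% of all genes lay higher and 8.93% lower without overlap. These calls were picked for a small p in the same embryos, so the lack of overlap is no separate support for them.

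Genes of the cell cycle stood lower in HARE5Hs/Hs, by small and even amounts. All 27 genes of G2 and M phase tested had a negative difference (median −0.28), and 18 of them had an unadjusted p under 0.05, where 5.98% of all genes did on that side. In 13 of the 27 all HARE5Hs/Hs embryos lay below all WT embryos, where 8.93% of all genes did. The summed level of the list was 5399, 4470 and 4619 CPM in HARE5Hs/Hs, against 5281, 5916 and 6013 CPM in WT, so that HARE5Hs/Hs replicate 1 lay above WT replicate 1 and the other 2 lay below every WT embryo. Ckap2, a spindle protein gene, stood at 70.2, 62.1 and 70.8 CPM in HARE5Hs/Hs and 76.8, 95 and 88.9 CPM in WT (−0.36, SE 0.09, edgeR adjusted p = 0.342). Prc1, which bundles the microtubules of the central spindle, stood at 197, 178 and 169 CPM in HARE5Hs/Hs and 211, 226 and 232 CPM in WT (−0.30, SE 0.08). Ccna2, a cyclin of S and G2 phase, stood at 227, 193 and 204 CPM in HARE5Hs/Hs and 247, 270 and 261 CPM in WT (−0.32, SE 0.08). The mitotic cyclin Ccnb1 stood at 183, 169 and 157 CPM in HARE5Hs/Hs and 194, 227 and 221 CPM in WT (−0.34, SE 0.09). In these 4 genes the genotypes did not overlap. All 27 differences stayed negative without HARE5Hs/Hs replicate 3 (median −0.25) and 12 had an unadjusted p under 0.05, where 3.01% of all genes did. Leaving out any other embryo kept all 27 negative and gave 12 to 24, where 3.24% to 10.5% of all genes were lower. At E12.5 the median of the list was 0.03.

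The promoters of mitotic genes are known to carry a short element, the cell cycle genes homology region (CHR), bound by the complexes that hold these genes silent outside G2 and M phase, often beside a CCAAT box bound by NF-Y. The promoters of Cdca5, Prc1 and Ckap2 are shown as those of the leading genes of the lower side in the cohesion and mitosis lists, from 150 bases before to 10 after the first annotated start, 5′ to 3′ on the strand of the gene (RefSeq, GRCm38.p6). Capitals mark the CHR (TTTGAA or TTCGAA) and the CCAAT box, each searched on both strands. Prc1 has 2 annotated starts, of which the first in the table was taken.
Cdca5, chr19:6084947-6085106 (+): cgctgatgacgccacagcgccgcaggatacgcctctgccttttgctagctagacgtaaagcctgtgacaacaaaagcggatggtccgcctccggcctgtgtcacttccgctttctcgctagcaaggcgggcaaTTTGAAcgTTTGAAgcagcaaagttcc
Prc1, chr7:80294301-80294460 (+): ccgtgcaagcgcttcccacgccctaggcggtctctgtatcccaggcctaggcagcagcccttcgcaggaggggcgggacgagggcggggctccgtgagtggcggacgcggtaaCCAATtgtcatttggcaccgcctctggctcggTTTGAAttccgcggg
Ckap2, chr8:22185810-22185969 (-): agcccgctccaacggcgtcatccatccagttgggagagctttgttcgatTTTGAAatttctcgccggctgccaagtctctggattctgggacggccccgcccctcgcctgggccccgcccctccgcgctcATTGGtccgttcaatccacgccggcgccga
Cdca5 held a pair of CHR elements, beginning 17 and 9 bases before the start, Prc1 held 1 across its start, and Ckap2 held 1 that begins 101 bases before it. Prc1 and Ckap2 each held a CCAAT box, read on the other strand in Ckap2. In windows from 250 bases before to 50 after the start, 19 of 23 promoters of G2 and M phase genes held a CHR, against 13.1% of the 10818 tested genes with a promoter in the table. Of the same 23, 20 held a CCAAT box, against 38.7% of all. A letter match is a description of the window and not evidence of binding.

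The 23 S phase genes were likewise all on the lower side (median −0.25), 14 of them at an unadjusted p under 0.05 and 7 with no overlap, where 5.98% and 8.93% of all genes were lower by these measures. Their summed level was 3221, 2700 and 2686 CPM in HARE5Hs/Hs and 3141, 3622 and 3487 CPM in WT, with HARE5Hs/Hs replicate 1 inside the WT range. Mcm3, Mcm5 and Mcm7 encode subunits of the replicative helicase. Mcm5 stood at 225, 190 and 187 CPM in HARE5Hs/Hs and 228, 267 and 235 CPM in WT (−0.28, SE 0.10, edgeR adjusted p = 0.342), Mcm3 at −0.32 and Mcm7 at −0.25. Slbp, which binds histone mRNA, stood at 65.2, 64.9 and 51.8 CPM in HARE5Hs/Hs and 72.7, 70.4 and 74.8 CPM in WT (−0.26, SE 0.09). The count of 14 depended on single embryos, with 1 without HARE5Hs/Hs replicate 3 (3.01% of all genes; median −0.19), 2 without HARE5Hs/Hs replicate 2 (3.24%), 2 without WT replicate 2 (5.25%) and 5 without WT replicate 3 (3.91%). The sign was steadier, with 22 of 23 negative without HARE5Hs/Hs replicate 3 and 23 without any other. Among 22 genes of cohesion and condensin 5 had an unadjusted p under 0.05, all lower (5.98% of all genes were; median −0.15). They were led by Cdca5 and by Esco2, which acetylates cohesin in S phase, with 30.5, 24.7 and 28.7 CPM in HARE5Hs/Hs and 36.2, 40.0 and 41.2 CPM in WT (−0.48, SE 0.12). The condensin genes Ncaph and Ncapg2 stood at −0.35 and −0.25. The count was 3 without HARE5Hs/Hs replicate 2 or WT replicate 2 (3.24% and 5.25% of all genes), and the median was −0.07 without WT replicate 2. Of 20 centriole and microcephaly genes 4 had an unadjusted p under 0.05, all lower (median −0.17), against the same 5.98% of all genes. Plk4, the kinase that starts centriole duplication, stood at 61.6, 45.4 and 45.7 CPM in HARE5Hs/Hs and 63.1, 69.1 and 74.3 CPM in WT (−0.43, SE 0.13). Stil, its partner, stood at −0.28, Nde1, of spindle orientation, at −0.26, and Kif14, of cytokinesis, at −0.25. The count was 1 without HARE5Hs/Hs replicate 3 (3.01%) and 2 without HARE5Hs/Hs replicate 2, WT replicate 1 or WT replicate 2 (3.24%, 5.06% and 5.25%), and the median was −0.08 without WT replicate 2.

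Markers of radial glia and intermediate progenitors differed less evenly than the cell cycle genes. The 19 radial glia genes had a median of −0.06 with 6 positive and 13 negative, and their summed level was 4973, 4749 and 4802 CPM in HARE5Hs/Hs and 5037, 5287 and 4681 CPM in WT, fully overlapping. Of them 5 had an unadjusted p under 0.05, all lower, where 5.98% of all genes were, and 3 or fewer did when an embryo other than HARE5Hs/Hs replicate 1 was left out (1 without HARE5Hs/Hs replicate 3, where 3.01% of all genes were lower). Prom1, an apical membrane protein gene of neural stem cells, stood at 120, 105 and 94.9 CPM in HARE5Hs/Hs and 136, 129 and 134 CPM in WT (−0.32, SE 0.10, edgeR adjusted p = 0.342). Emx2, a homeodomain factor of dorsal progenitors, stood at 90.1, 65.3 and 61.1 CPM in HARE5Hs/Hs and 100, 112 and 93.6 CPM in WT (−0.50, SE 0.19). Vim, the intermediate filament vimentin, stood at 862, 791 and 732 CPM in HARE5Hs/Hs and 927, 904 and 943 CPM in WT (−0.22, SE 0.08). The genotypes did not overlap in these 3. The 16 intermediate progenitor genes had a median of −0.01, 7 positive and 9 negative, and 4 lower at an unadjusted p under 0.05 (5.98% of all genes). Chd7, a chromatin remodeler gene of that list, stood at −0.32, the matrix gene Mfap4 at −0.42 and Tbrg4 at −0.29. The count was 1 without HARE5Hs/Hs replicate 2 or WT replicate 2 (3.24% and 5.25%), and 0 without HARE5Hs/Hs replicate 3 (3.01%). Of 14 genes known from basal radial glia of the human cortex, the stem cells of its outer zone, 5 were positive and 9 negative (median −0.23) and 0 had an unadjusted p under 0.05, against 4 lower and 1 higher without HARE5Hs/Hs replicate 1, where 10.5% and 9.17% of all genes were. The median of these 14 was −0.11 without HARE5Hs/Hs replicate 3 and −0.08 without WT replicate 3.

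Lists of signalling and patterning genes of progenitors had small medians, while single genes such as Hey2 and Dmrt3 differed more. Among 21 Notch pathway genes 1 was higher and 4 lower at an unadjusted p under 0.05 (median −0.12), where 5.95% and 5.98% of all genes were. The 1 of 21 higher was near the share of all genes. The Notch ligand Dll1 stood at 128, 106 and 110 CPM in HARE5Hs/Hs and 135, 165 and 124 CPM in WT (−0.30, SE 0.10), the effector Hes1 at 27.5, 19.2 and 21.3 CPM in HARE5Hs/Hs and 26.9, 30.8 and 33.9 CPM in WT (−0.43, SE 0.16), and the related effector Hey2 at 8.84, 7.29 and 4.83 CPM in HARE5Hs/Hs and 14.2, 12.6 and 16.0 CPM in WT (−1.02, SE 0.33). HARE5Hs/Hs replicate 1 overlapped WT in the first pair and not in Hey2. The lower count was 1 without HARE5Hs/Hs replicate 3 (3.01%) and 2 without HARE5Hs/Hs replicate 2 or WT replicate 3 (3.24% and 3.91%), and the higher count was 2 without WT replicate 1, 3 without WT replicate 2 and 0 without HARE5Hs/Hs replicate 3. The median was −0.22 without HARE5Hs/Hs replicate 1, −0.03 without HARE5Hs/Hs replicate 3 and −0.07 without WT replicate 1 or 2. In the Hedgehog pathway, Smo, its membrane transducer, stood at 169, 134 and 133 CPM in HARE5Hs/Hs and 172, 189 and 200 CPM in WT (−0.36, SE 0.10), and Gas1, a co-receptor, at 106, 82.1 and 80.7 CPM in HARE5Hs/Hs and 111, 141 and 119 CPM in WT (−0.46, SE 0.13). Both were without overlap, while the median of the 14 genes was −0.01. Among the factors that pattern cortical areas, Dmrt3, of the medial side of the cortex, stood at 28.9, 20.3 and 16.9 CPM in HARE5Hs/Hs and 32.6, 41.4 and 37.0 CPM in WT (−0.74, SE 0.22). Dmrta1, a relative of it, stood at −0.58 and Sp8, of the rostral side, at −0.49. Of the 20 genes of that list 1 was higher and 5 lower at an unadjusted p under 0.05 (5.95% and 5.98% of all genes; median −0.01). The 1 of 20 higher was again near the share of all genes. The lower count was 2 without HARE5Hs/Hs replicate 2 (3.24%), 3 without HARE5Hs/Hs replicate 3 (3.01%) and 1 without WT replicate 2 (5.25%), and the higher count was 1 to 4, with 4 without WT replicate 1. Id4, an inhibitor of proneural factors, stood at 172, 111 and 114 CPM in HARE5Hs/Hs and 168, 196 and 174 CPM in WT (−0.43, SE 0.14), and without HARE5Hs/Hs replicate 1 it stood at −0.67 and was called by edgeR (edgeR adjusted p = 0.0171).

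Fzd8, the gene on which HARE5 acts, stood at 56.9, 53.6 and 50.1 CPM in HARE5Hs/Hs and 51.3, 55.7 and 51.6 CPM in WT, with the embryos interleaved. The 95% interval of its difference, −0.37 to 0.41, spans 0.773 to 1.33 of the WT level. Its width rests on the spread over all 12 libraries, which for Fzd8 was larger at E12.5. There the SD was 17.7 CPM in HARE5Hs/Hs and 12.3 CPM in WT, against 3.41 and 2.44 CPM at E14.5. Per length, the authors' deposited FPKM put Fzd8 at 17.0 ± 0.986 in HARE5Hs/Hs and 16.5 ± 0.693 in WT, and Fzd9, another Frizzled receptor gene, at 13.9 ± 4.34 in HARE5Hs/Hs and 20.9 ± 1.62 in WT (SD, n = 3 each). Of 18 listed neighbours of Fzd8, 16 lie with it on chromosome 18 in the annotation used, and 14 of these were tested. They had 9 differences above 0 and 5 below, a median of 0.06, and 1 (Mpp7) lower at an unadjusted p under 0.05, where 5.98% of all genes were lower. Without HARE5Hs/Hs replicate 1, 4 were lower and 1 higher (10.5% and 9.17% of all genes), and without WT replicate 2, 2 were lower (5.25%). The higher count was 2 without WT replicate 1 (7.11%) and 1 without HARE5Hs/Hs replicate 2 (3.15%). The median was −0.0025 without HARE5Hs/Hs replicate 3, with 6 above 0 and 8 below, and it was 0.04 without WT replicate 2 and 0.09 without WT replicate 3.

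Among the receptors and co-receptors of Wnt, 14 of 18 differences were negative (median −0.18) and 2 were lower at an unadjusted p under 0.05 (5.98% of all genes). Fzd9 stood at 35.2, 26.3 and 18.2 CPM in HARE5Hs/Hs and 39.5, 44.1 and 37.8 CPM in WT (−0.60, SE 0.25, edgeR adjusted p = 0.388), without overlap. Ror2, a receptor for Wnt5a, stood at 35.2, 24.8 and 16.2 CPM in HARE5Hs/Hs and 32.5, 42.6 and 36.2 CPM in WT (−0.53, SE 0.21), with HARE5Hs/Hs replicate 1 inside the WT range. Fzd1 and the co-receptor Ryk stood at −0.23 and −0.12. The receptor count was 4 without HARE5Hs/Hs replicate 1 (10.5%), 1 without WT replicate 1 (5.06%), 3 without WT replicate 3 (3.91%), and 0 without HARE5Hs/Hs replicate 2, HARE5Hs/Hs replicate 3 or WT replicate 2. The median was −0.10 without HARE5Hs/Hs replicate 3 or WT replicate 3. Of the ligands, Wnt7b, made by cortical neurons, stood at 211, 247 and 287 CPM in HARE5Hs/Hs and 217, 196 and 179 CPM in WT (0.33, SE 0.14). Wnt5a stood at 23.6, 15.7 and 9.29 CPM in HARE5Hs/Hs and 32.2, 22.7 and 33.6 CPM in WT (−0.85, SE 0.31). Wnt8b, a ligand of the cortical hem, stood at 31.6, 14.4 and 0.182 CPM in HARE5Hs/Hs and 31.5, 32.5 and 48.7 CPM in WT (−1.23, SE 0.64), so that HARE5Hs/Hs replicate 3 had almost none. The 17 ligand and secretion genes had a median of −0.85, and of −0.39 without HARE5Hs/Hs replicate 3 and −0.31 without WT replicate 3, and several of them are markers of the hem, whose summed level is given with the neighbouring tissues. The 12 secreted inhibitors had a median of −0.53, with 0 at an unadjusted p under 0.05, and 4 lower without HARE5Hs/Hs replicate 1 (10.5% of all genes), 1 without WT replicate 1 and 2 without WT replicate 2.

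Downstream, the 24 intracellular genes of the pathway had a median of 0.01, with 3 higher and 3 lower at an unadjusted p under 0.05 (5.95% and 5.98% of all genes). The higher count was 0 without HARE5Hs/Hs replicate 2, HARE5Hs/Hs replicate 3 or WT replicate 3 and 1 without WT replicate 2, and the lower count was 5 without HARE5Hs/Hs replicate 1 (10.5%) and 1 without HARE5Hs/Hs replicate 2 or WT replicate 2 (3.24% and 5.25%). Lef1, the partner of beta-catenin on DNA and itself a target gene, stood at 37.9, 29.0 and 22.1 CPM in HARE5Hs/Hs and 45.0, 49.6 and 44.7 CPM in WT (−0.64, SE 0.20, edgeR adjusted p = 0.342), without overlap. Tcf7l1, a repressor of the same family, stood at 56.0, 49.2 and 55.0 CPM in HARE5Hs/Hs and 60.1, 65.5 and 60.1 CPM in WT (−0.21, SE 0.08). Znrf3, which removes Frizzled receptors from the membrane, stood at −0.32, and Apc2, a neuronal relative of Apc, at 529, 669 and 666 CPM in HARE5Hs/Hs and 491, 442 and 340 CPM in WT (0.55, SE 0.21). Of 22 Wnt target genes 1 was higher and 4 were lower at an unadjusted p under 0.05 (5.95% and 5.98% of all genes; median −0.24; −0.04 without WT replicate 3, with 11 positive and 11 negative). The lower count was 7 without HARE5Hs/Hs replicate 1 (10.5%), and the higher count was 2 without WT replicate 1 (7.11%). Tnfrsf19, a receptor gene of neural stem cells, stood at 240, 164 and 127 CPM in HARE5Hs/Hs and 265, 314 and 319 CPM in WT (−0.76, SE 0.18, edgeR adjusted p = 0.342, DESeq2 adjusted p = 0.0188). Its HARE5Hs/Hs embryos all lay below WT, and it was called by edgeR without HARE5Hs/Hs replicate 1 (−1.04, edgeR adjusted p = 0.0171). Axin2, the standard reporter gene of Wnt activity, stood at 94.8, 53.8 and 40.4 CPM in HARE5Hs/Hs and 82.3, 77.5 and 104 CPM in WT (−0.48, SE 0.25), with HARE5Hs/Hs replicate 1 within the WT range. Axin2 is also on the list of cortical hem genes, and it stood at −0.24 without HARE5Hs/Hs replicate 3. Id2, an inhibitor of differentiation, was the target gene on the higher side, with 91.9, 130 and 138 CPM in HARE5Hs/Hs and 93.0, 87.2 and 70.2 CPM in WT (0.52, SE 0.16).

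**Figure D3:**
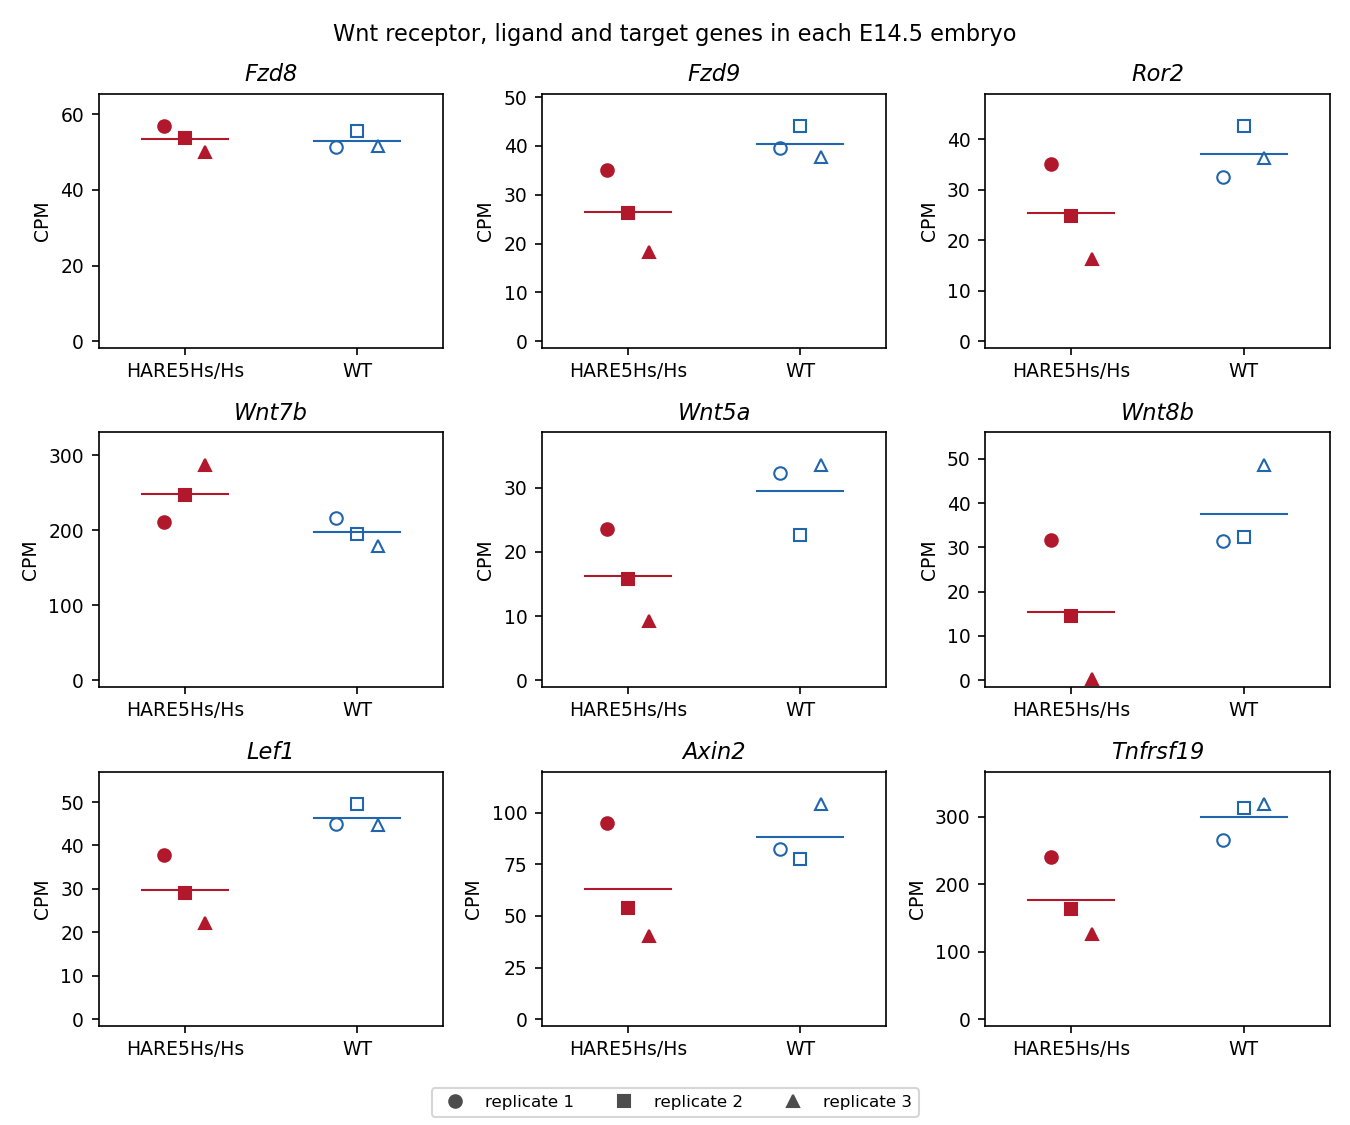
CPM (y axis, linear) of 9 Wnt receptor, ligand and target genes in each E14.5 embryo, HARE5Hs/Hs (red, filled) left and WT (blue, open) right, with lines at the means and symbols for replicates 1 to 3. Fzd8 is interleaved between 50.1 and 56.9 CPM, whereas Fzd9, Lef1 and Tnfrsf19 are lower in every HARE5Hs/Hs embryo than in any WT embryo.

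Markers of neighbouring tissue varied widely between embryos of 1 genotype. The 20 meninges and mesenchyme genes summed to 1028, 545 and 317 CPM in HARE5Hs/Hs and 1031, 681 and 1605 CPM in WT, and 6 of them were at 0 counts in HARE5Hs/Hs replicate 3, while 0 were in the other 5 embryos. All 20 had a negative difference (median −0.82), 5 at an unadjusted p under 0.05, where 5.98% of all genes were lower. That count was 12 without HARE5Hs/Hs replicate 1 (10.5%), 2 without HARE5Hs/Hs replicate 2 (3.24%), and 1 without HARE5Hs/Hs replicate 3 or WT replicate 3 (3.01% and 3.91%). The median was −1.80 without HARE5Hs/Hs replicate 1, −0.49 without HARE5Hs/Hs replicate 3 (18 of 20 negative) and −0.33 without WT replicate 3 (16 of 20 negative). The 17 cortical hem genes summed to 374, 226 and 95.7 CPM in HARE5Hs/Hs and 356, 252 and 527 CPM in WT, with 5 at 0 counts in HARE5Hs/Hs replicate 3 and 1 in each other embryo. All 16 hem genes tested had a negative difference (median −0.81), 1 at an unadjusted p under 0.05 (5.98% of all genes). That count was 9 without HARE5Hs/Hs replicate 1 (10.5%) and 0 without HARE5Hs/Hs replicate 3 (3.01%). The hem median was −0.36 without HARE5Hs/Hs replicate 3 and −0.27 without WT replicate 3. The 18 choroid plexus genes summed to 804, 1093 and 181 CPM in HARE5Hs/Hs and 279, 420 and 1035 CPM in WT. Of the choroid plexus genes, 6 were at 0 counts in HARE5Hs/Hs replicate 3 and 4 in WT replicate 1. In each of these lists the genotypes overlapped, and HARE5Hs/Hs replicate 3 held the least of all 6 embryos. Their part in the neuronal and cell cycle differences was not tested.

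Genes of inhibitory interneurons, which enter the cortex from the ventral telencephalon, were on the higher side in 18 of 19 cases (median 1.29), and 11 did not overlap, where 9.48% of all genes did not. Their summed level was 179, 290 and 225 CPM in HARE5Hs/Hs and 148, 157 and 132 CPM in WT, without overlap. Lhx6, a factor of migrating interneurons, stood at 19.1, 31.8 and 39.3 CPM in HARE5Hs/Hs and 14.8, 11 and 7.501 CPM in WT (1.43, SE 0.33, edgeR adjusted p = 0.342, DESeq2 adjusted p = 0.0164). Erbb4, a neuregulin receptor of the same cells, stood at 10.1, 18.8 and 13.6 CPM in HARE5Hs/Hs and 7.10, 6.21 and 7.501 CPM in WT (1.03, SE 0.29). Gad1, of GABA synthesis, had 133, 313 and 153 counts in HARE5Hs/Hs and 113, 106 and 44 counts in WT. Sst, the peptide of an interneuron class, had 181, 261 and 140 counts in HARE5Hs/Hs and 67, 97 and 45 counts in WT. Dlx6, of the ventral telencephalon, had 18 counts over the 3 HARE5Hs/Hs embryos and 0 over the 3 WT embryos, at least 6.32-fold higher against a floor of 3 counts over the group. The median was 1.30 without HARE5Hs/Hs replicate 3 and 0.83 without HARE5Hs/Hs replicate 2, and positive differences numbered 14 of 19 without HARE5Hs/Hs replicate 2, 16 without HARE5Hs/Hs replicate 1 and 17 without any 1 of the WT embryos. At an unadjusted p under 0.05, 2 of its genes (Lhx6 and Erbb4) were higher and 1 (Sp8) lower, shares of 10.5% and 5.26% where 5.95% and 5.98% of all genes were. Without HARE5Hs/Hs replicate 3 the counts were again 2 and 1 (3.08% and 3.01% of all genes), and 3 were higher without HARE5Hs/Hs replicate 1 or WT replicate 3 (9.17% and 3.4%). At E12.5 the median was 0.61. Of the markers of the ventral source, Gsx2 had 20 counts in HARE5Hs/Hs replicate 2, 3 in WT replicate 2 and 0 in the other 4 embryos. Nkx2-1 had 0, 6 and 7 counts in HARE5Hs/Hs and 0, 1 and 4 counts in WT.

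Red cell genes stood higher too, with 14 of 15 positive (median 1.17) and 9 higher at an unadjusted p under 0.05, where 5.95% of all genes were. They summed to 2656, 5972 and 4572 CPM in HARE5Hs/Hs and 2350, 789 and 1600 CPM in WT, and the 3 HARE5Hs/Hs embryos lay above the 3 WT embryos. Hba-a1, an alpha-globin gene, stood at 1229, 3353 and 2640 CPM in HARE5Hs/Hs and 1174, 355 and 682 CPM in WT (1.71, SE 0.53, edgeR adjusted p = 0.342). Globin genes are near-identical copies, so the split of reads between them is uncertain. The count was again 9 without HARE5Hs/Hs replicate 3 (3.08% of all genes), but 5 without HARE5Hs/Hs replicate 2 (3.15%) and 4 without WT replicate 2 (4.33%), and 12 to 15 differences were positive with an embryo left out. In contrast, 18 of 22 genes of vessels (median −0.18) and 15 of 18 genes of microglia and macrophages (median −0.20) were on the lower side, with 0 and 1 at an unadjusted p under 0.05 (5.98% of all genes). Vessel genes on the lower side at that p numbered 5 without HARE5Hs/Hs replicate 1 or WT replicate 2 (10.5% and 5.25%). The vessel median was −0.32 without either of these, −0.04 without HARE5Hs/Hs replicate 3 and −0.08 without WT replicate 3, the last 2 with 12 of 22 negative. The microglia median was −0.37 without HARE5Hs/Hs replicate 2, −0.42 without WT replicate 2 and 0.12 without WT replicate 3.

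**Figure D4:**
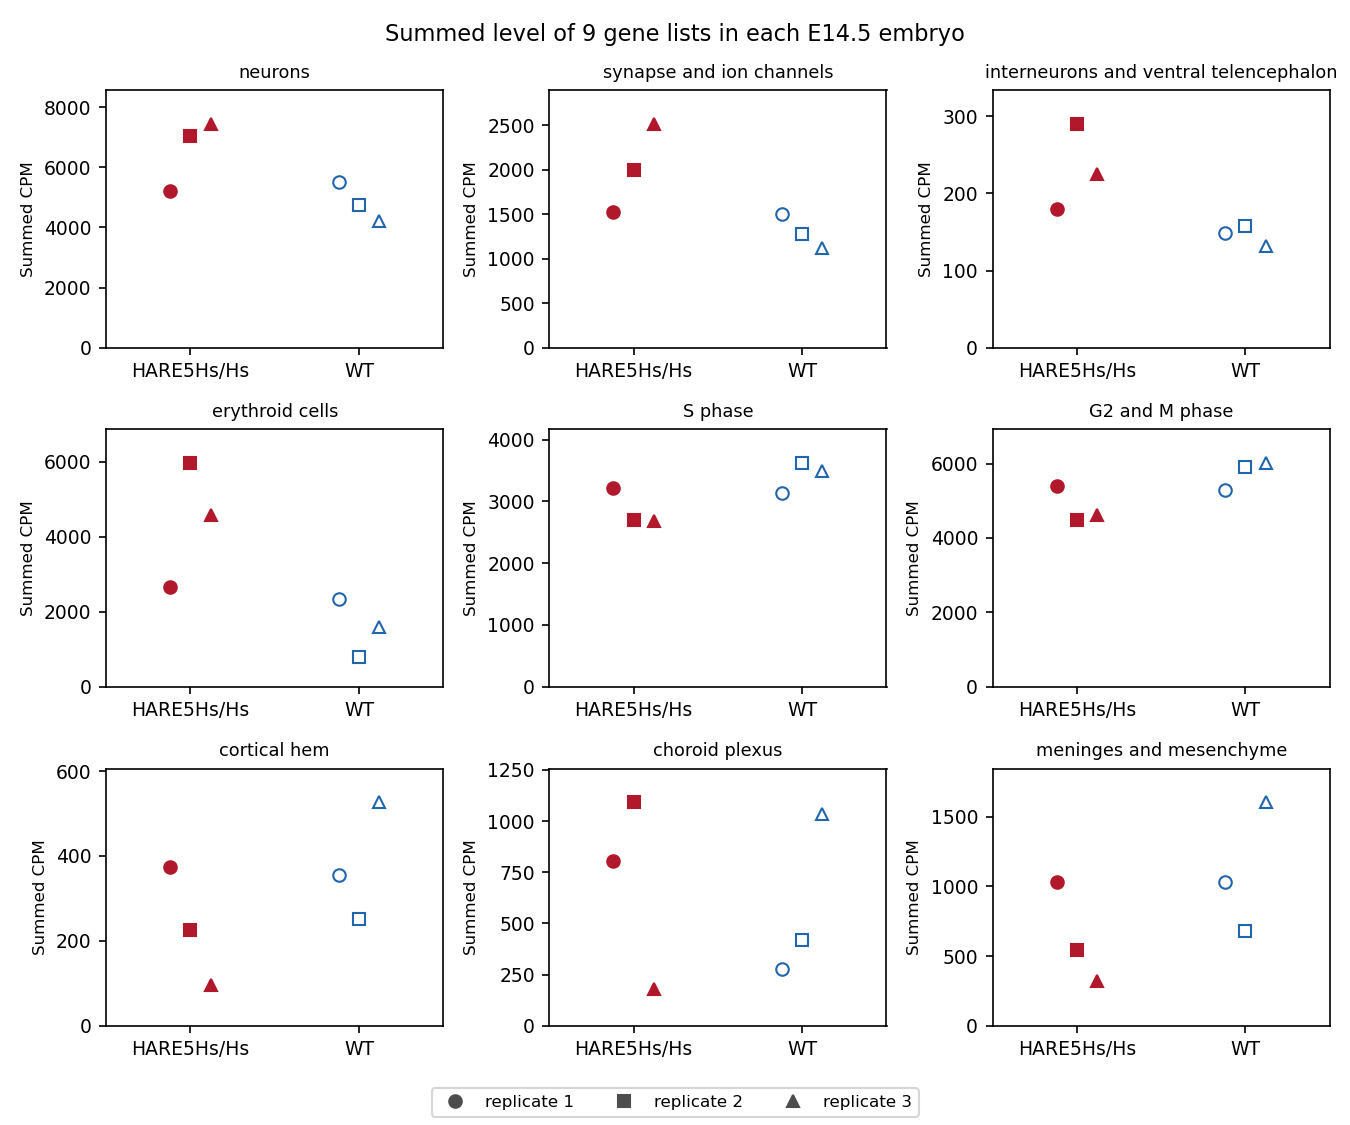
Summed CPM (y axis, linear, from 0) of 9 gene lists in each E14.5 embryo, HARE5Hs/Hs (red, filled) left and WT (blue, open) right, with symbols for replicates 1 to 3. The neuron and synapse sums of HARE5Hs/Hs replicates 2 and 3 lie above all WT embryos and their S phase and G2 and M phase sums below, while HARE5Hs/Hs replicate 1 lies near or inside the WT range; HARE5Hs/Hs replicate 3 is lowest in the hem, choroid plexus and meninges panels.

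Lists of metabolic and housekeeping genes had small medians. Of 20 hypoxia and glycolysis genes 17 were negative (median −0.22), with 1 higher and 5 lower at an unadjusted p under 0.05 (5.95% and 5.98% of all genes). Eno1, a glycolytic enzyme gene, stood at 964, 794 and 759 CPM in HARE5Hs/Hs and 965, 1132 and 1130 CPM in WT (−0.36, SE 0.12), and Pgk1, another, at 464, 404 and 400 CPM in HARE5Hs/Hs and 495, 550 and 582 CPM in WT (−0.36, SE 0.13). Vegfa, a growth factor of vessels, stood at −0.24, and Ndrg1, which is induced by low oxygen, was on the higher side at 0.76. The lower count was 1 without HARE5Hs/Hs replicate 2 (3.24%), 0 without HARE5Hs/Hs replicate 3 (3.01%), 3 without WT replicate 2 (5.25%) and 2 without WT replicate 3 (3.91%). Of 60 ribosomal protein genes 57 were negative (median −0.10), and 19 did not overlap, where 8.93% of all genes did not on that side. Ribosomal protein genes have many near-identical copies, so their counts are uncertain. The 30 genes of oxidative phosphorylation were split 16 to 14 (median 0.00). Among chromatin regulators, Chd5, of neurons, stood at 35.7, 63.0 and 53.3 CPM in HARE5Hs/Hs and 23.4, 19.2 and 19.5 CPM in WT (1.29, SE 0.46). Smarca2, a neuronal ATPase subunit of the BAF complex, stood at 0.52 and Eed, a subunit of PRC2, at −0.29. The 20 p53 target genes had a median of −0.11 with 0 higher and 3 lower at an unadjusted p under 0.05 (5.98% of all genes were lower; 0 lower without HARE5Hs/Hs replicate 2 or 3, 1 without WT replicate 3), and the 21 cholesterol synthesis genes a median of −0.07.

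At E12.5, with all libraries, the medians of the neuronal and cell cycle lists were nearer to 0 than at E14.5. They were −0.04 for S phase, 0.03 for G2 and M phase, 0.23 for synapse and ion channels, 0.35 for neurons and 0.16 for upper layers. For neurons the contrast of medians was slight. Their E14.5 median was 0.42, and 0.33 to 0.55 with an embryo left out, a range that includes the E12.5 value. No E12.5 embryo was left out in turn. The summed level of neuron genes at E12.5 was 2816, 1518 and 1737 CPM in HARE5Hs/Hs and 1767, 1618 and 1689 CPM in WT. Only HARE5Hs/Hs replicate 1 lay above the WT range there. Of single genes, Ptprt stood at 0.20, Syn3 at 0.07, Cdca5 at −0.15 and Rad54l at −0.07 at E12.5. The difference between ages was tested gene by gene as the interaction and passed for 0 genes in edgeR. The difference between ages of a list was not tested.

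**Figure D5:**
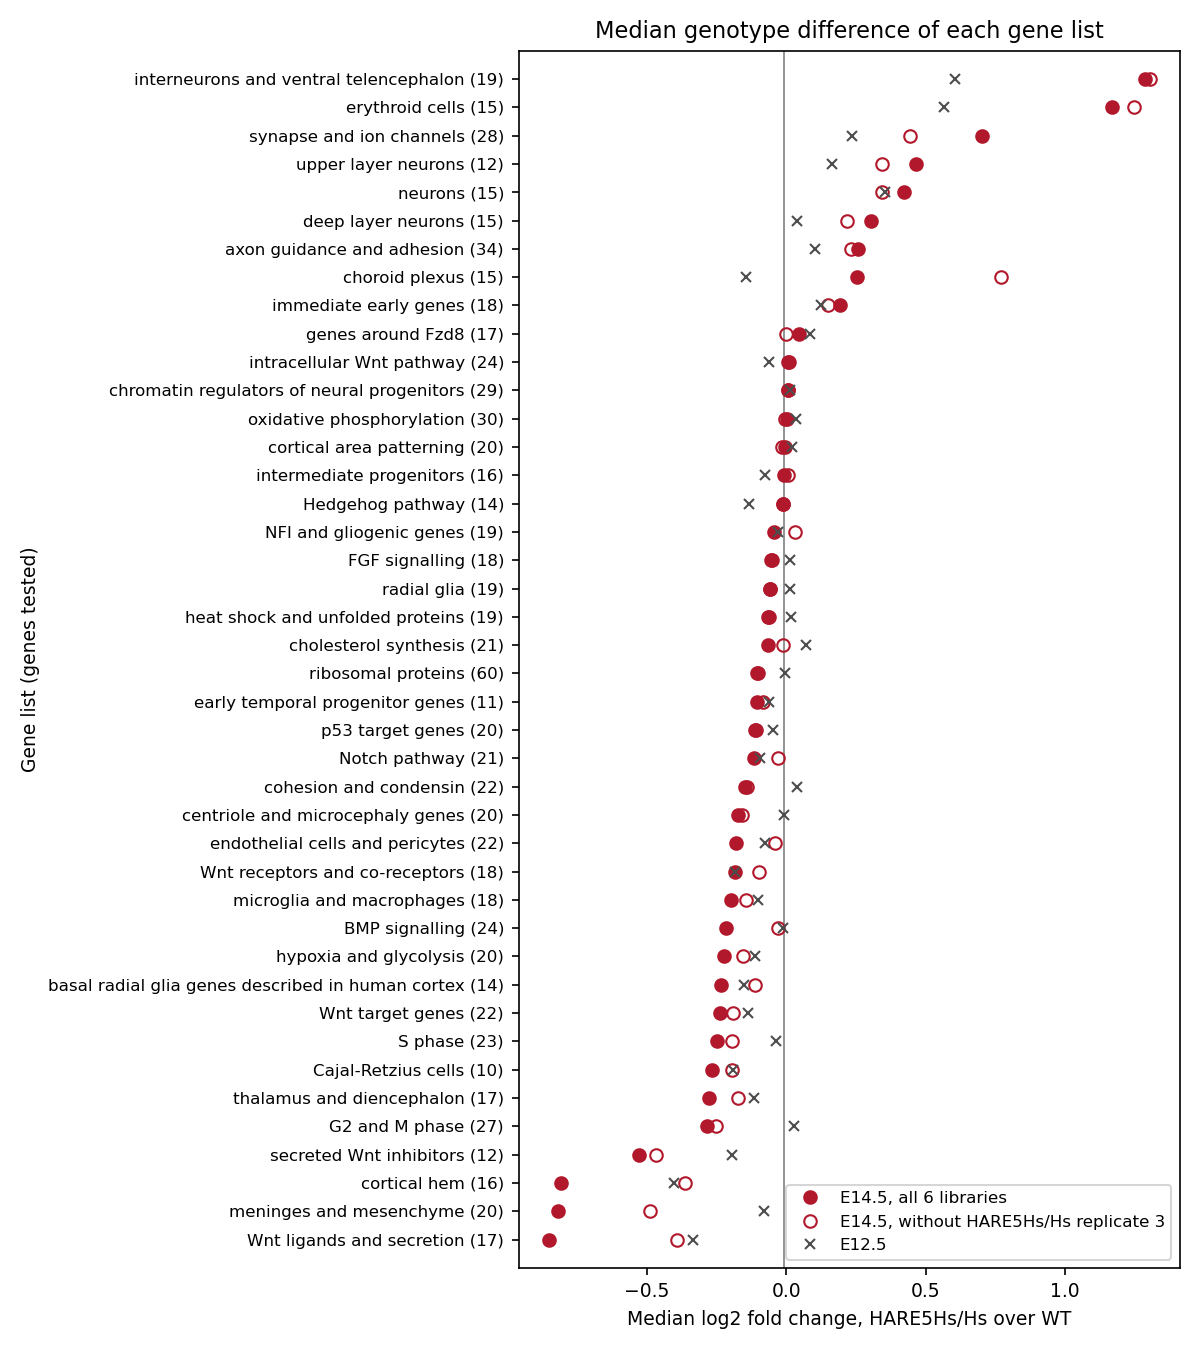
Median log2 fold change of HARE5Hs/Hs over WT (x axis) of each gene list, with the number of genes tested in brackets, at E14.5 with all 6 libraries (filled red), at E14.5 without HARE5Hs/Hs replicate 3 (open red) and at E12.5 (crosses); the vertical line is the median of all genes at E14.5. Synapse and ion channels stand at 0.70 with and 0.44 without that embryo, and G2 and M phase genes at −0.28 and −0.25.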

How the data were processed

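Expected counts and FPKM of 24411 genes, per the file headers the authors' estimates for each library, were deposited in 2 tables; counts were identical between the tables (0 cells differed). The submitters' processing notes name STAR, DESeq2 and the mouse build mm39, without versions. How reads were assigned to genes, and with which strand setting, is not given in the sources used here. Not used were 12 columns, of 6 libraries that match no sample. Columns were matched to samples by their names.

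The deposited expected counts, which are whole numbers, were analysed in R 4.3.3. Genes were kept by filterByExpr with the 4 groups and a minimum count of 10 (14311 genes), scaled by TMM, and fitted over all 12 libraries with 1 mean per group in edgeR 4.0.16 (quasi-likelihood F test, 2-sided, Benjamini-Hochberg over all genes, threshold 0.05). The SE is the size of the log2 fold change over the square root of F, an approximation. FPKM was used to set levels of different genes side by side and was not tested. Where a group held 3 counts or fewer in sum, a ratio with an exact 95% counting interval or a bound at a floor of 3 counts is given; PCR copies are not independent molecules, so both cover counting error only. The estimates of fold change were checked on simulated counts with planted changes. Those counts held no outlying embryo and no mixture of tissues, so the check does not cover these.

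The members and all gene lists were chosen with earlier results of these data known. Named genes are the 10 with the smallest p in each direction, up to 4 of each list with the smallest p, Fzd8, and Ttr, Col1a1 and Xist as checks; not all are printed. The DESeq2 calls, the genes called when an embryo is left out, interneuron markers given as counts and the genes high in HARE5Hs/Hs replicate 3 were added after their values were seen. Lists are described by counts and medians and were not tested.

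Alternatives were DESeq2 1.42.0 (Wald), DESeq2 size factors in edgeR, 2 other filters, only the 6 E14.5 libraries, the replicate number as a block, Xist as a covariate, and each E14.5 library left out in turn. Replicate numbers are shared between genotypes in the labels, but nothing says that they pair embryos, and the main fit has no block. Promoter sequences are RefSeq's (GRCm38.p6), used for sequence and gene names only, since the authors' build is mm39; 10818 of the 14311 tested genes matched by symbol. Motifs overlap where they share letters. A few genes that enter the counts and medians are not reported here by name.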

Additional observations from a re-analysis of the deposited data

How the results depend on the processing

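Counts of genes passing at E14.5 were 0 under each edgeR setting with all libraries, and DESeq2 called 35, 25 higher and 10 lower. With 1 embryo left out, edgeR called 0 to 19, of which 0 to 7 were higher and 0 to 12 lower, and the 19 came from leaving out HARE5Hs/Hs replicate 1. The interaction with age gave 1 gene in DESeq2 and 0 to 2 with an embryo left out, and E12.5 gave 0 in DESeq2 and in each edgeR setting run there. The count at an unadjusted p under 0.05 was 1708, and 872 to 2812 with an embryo left out; this set and the counts of lists were added after seeing the data. Its split was 1049 higher to 710 lower with DESeq2 size factors and 1238 to 772 with only the 6 E14.5 libraries. DESeq2 size factors put the median log2 fold change of all genes at 0.01, against −0.01, and changed the direction of no named gene. Fzd8 stood between −0.0267 and 0.0661 with an embryo left out, the negative value without HARE5Hs/Hs replicate 1. Among the other named genes, most of them chosen for a small p, the sign depended on an embryo for Ttr, Xist, Otx2, Lmx1a and Lin28a. These were all in tissue, sex or low-count checks, with ranges of −0.18 to 2.13, −0.69 to 0.49, −0.997 to 0.58, −1.13 to 0.11 and −4.13 to 0. Genes that are not named were not looked at singly for this.

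With the replicate number within each age as a block, 0 genes passed and 894 stood higher and 792 lower at an unadjusted p under 0.05. After group means were removed, embryos of different genotype with the same number correlated at −0.11, −0.14 and −0.44, and those with different numbers at −0.31 to 0.41. As deviations within a group of 3 sum to 0, these values cannot tell whether the numbers pair embryos. Fzd8 stood at 0.0186 under the block.

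With 3 embryos per genotype, unlabelled litters and a library, HARE5Hs/Hs replicate 3, that differs in size, tissue markers and mature-brain genes, small differences of single genes cannot be settled in either direction. The Fzd8 interval allows 0.773 to 1.33 of the WT level, with a spread taken over both ages that was larger at E12.5. Low-count genes are limited by depth.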

Other observations

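A pair of gene models, Gm14308 and Gm14430, had counts in opposite genotypes at E14.5 but not at E12.5. Gm14308 had 542 counts over the 3 HARE5Hs/Hs embryos and 0 over the WT embryos, with 29.0, 3.58 and 0 CPM in HARE5Hs/Hs replicates 1, 2 and 3. Gm14430 had 0 counts in HARE5Hs/Hs and 486 in WT, with 2.79, 0 and 29.5 CPM in WT replicates 1, 2 and 3. Both were DESeq2 calls, but HARE5Hs/Hs replicate 3 was at 0 for Gm14308 and WT replicate 2 at 0 for Gm14430, and counts of similar gene models may be split between them. At E12.5 neither followed genotype. There Gm14308 stood at 0, 16.5 and 26.6 CPM in HARE5Hs/Hs and 16.9, 0 and 0 CPM in WT. Gm14430 stood at 0, 16.9 and 0 CPM in E12.5 HARE5Hs/Hs and 17.8, 0 and 23.15 CPM in E12.5 WT. Sox10, of the oligodendrocyte and neural crest lineages, was at 0 in WT and had 39 counts in HARE5Hs/Hs, at least 13.7-fold higher against a floor of 3 counts over the group, with 0.178, 0.203 and 3.01 CPM, so that most came from HARE5Hs/Hs replicate 3. Shh, the Hedgehog ligand, had 32 counts in HARE5Hs/Hs, mostly in replicate 2 (0.119, 1.82 and 0.273 CPM), and 0 in WT, at least 11.2-fold higher against the same floor. Olig3, a patterning gene, had 30 counts in HARE5Hs/Hs and 1 in WT, a ratio of 31.6 (95% counting interval 5.26 to 1290), with 22 of the 30 in replicate 2.

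Dmrt1, a relative of the patterning gene Dmrt3, stood at 0.652, 0.0675 and 0.182 CPM in HARE5Hs/Hs and 1.66, 2.43 and 1.73 CPM in WT (−2.59, DESeq2 adjusted p = 0.0365). Immediate early genes, which respond to activity and handling, included 5 of 18 higher at an unadjusted p under 0.05, where 5.95% of all genes were. Egr3 stood at 0.474, 2.09 and 9.11 CPM in HARE5Hs/Hs and 0.398, 0.135 and 0.664 CPM in WT, and Fos at 0.593, 1.28 and 2.28 CPM in HARE5Hs/Hs and 0.133, 0.540 and 0.597 CPM in WT. The count was 1 without HARE5Hs/Hs replicate 3 (3.08% of all genes) and 3 without HARE5Hs/Hs replicate 2 (3.15%). Aldh1l1, of the astrocyte lineage, stood at 3.85, 8.91 and 4.46 CPM in HARE5Hs/Hs and 1.59, 2.77 and 0.929 CPM in WT (1.70, SE 0.63), without overlap, and unlike Gfap its highest value was in HARE5Hs/Hs replicate 2.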
